A study of Mus musculus with 12 samples.

Results

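The JAK, STAT and SOCS signaling genes described here are 10 genes of one cytokine pathway, Jak1, Jak2, Jak3, Stat3, Stat5a, Stat5b, Socs1, Socs2, Socs3 and Cish, taken by name from a table of 32285 genes. All 10 had a row in the table, and all 10 were among the 13367 genes with enough counts to be tested. They were measured by RNA sequencing of 2 BM progenitor populations sorted from wild-type C57BL/6J mice, in 4 groups of 3 libraries: 1MO CLP and 3MO CLP are Ly6d- common lymphoid progenitors from mice aged 1 and 3 months, and 1MO MPP and 3MO MPP are Flk2+ multipotent progenitors from mice of the same ages. No group carried a transgene or received a treatment. Both populations were sorted as lineage-negative Flk2+CD27+ cells, with IL-7R present and Ly6d absent on CLPs, and with IL-7R absent and c-kit and Sca-1 present on MPPs, so the RNA of Il7r, Kit, Ly6a, Flt3, Cd27 and Ly6d is not a finding between them.

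Cytokine receptors without enzyme activity of their own carry Janus kinases on their intracellular tails. When a ligand brings the receptor chains together, the kinases phosphorylate the receptor, STAT proteins dock there, are phosphorylated in turn, pair up and move to the nucleus, where they bind DNA at short inverted repeats. The SOCS proteins and CIS, the product of Cish, are made in response to STATs and act back on the receptor or kinase. In lymphoid progenitors the best known input is IL-7, whose receptor pairs the IL-7R chain with JAK1 and the common gamma chain with JAK3 and acts mainly through STAT5.

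The libraries held between 8889083 and 20677785 estimated counts. Levels are CPM, counts scaled to a common library size, after TMM scaling, a correction for differences in library composition. Summed marker levels differed by label: the summed level of 9 CLP-type genes was 6408 to 7551 CPM in CLP libraries and 2476 to 3281 in MPP libraries, and that of 9 MPP-type genes was 2405 to 2584 in CLP and 3678 to 4093 in MPP libraries. The first list was Il7r, Dntt, Rag1, Rag2, Notch1, Cd27, Flt3, Il2rg and Ighm, and the second Kit, Ly6a, Cd34, Flt3, Cd27, Hlf, Meis1, Mecom and Procr. Both hold genes of the sort and share Flt3 and Cd27, so the sort partly set these sums. Il2rg, on the CLP-type list, was lower in CLPs, at a mean of 45.8 CPM against 77.7 in MPPs. Transcripts of other lineages also differed between the populations, with 5 dendritic genes summing to 818 to 1063 CPM in CLPs and 97.2 to 155.9 in MPPs, 9 B-lineage genes to 136.4 to 221.9 in CLPs and 15.2 to 27.5 in MPPs, and 8 stroma genes to 275.9 to 905.4 in CLPs and 141.6 to 242.3 in MPPs. Their part in the differences between CLPs and MPPs was not tested, and in sorted bulk samples fewer cells of a type and less RNA per cell cannot be told apart. The replicates are numbered in the labels, and the study describes 3 independent experiments, so p-values measure the spread between such libraries.

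The start regions of the members differed in the letters STAT proteins are known to bind. RefSeq promoter sequence, from 250 bases before to 50 bases after a transcript start on GRCm38.p6, was given for 9 of the 10 members in 11 entries, with no entry for Socs2. The inverted repeat TTCNNNGAA, which reads the same on both strands, occurred at least once in 8.30% of all 32851 promoters of this length and at least 2 times in 0.457%. Cish held 2 matches, which began 1 and 12 bases into the transcript, and Socs3 held 1, which began 154 bases before the start. The 30 bases around them are shown because these members encode inhibitors made in response to STATs, with each match in capitals, 5′ to 3′ on the strand of the gene, from chr9:107296654-107296683 on the plus strand for Cish and chr11:117969501-117969530 on the minus strand for Socs3.
Cish: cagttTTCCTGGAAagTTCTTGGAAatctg
Socs3: gaaaccagccTTCTTAGAAgggaggggggg
The other 9 entries held 0 matches. A match in this window is a description of the letters and not of binding, and no match says only that these letters are not in the window.

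The promoters of Jak2 and Jak3, the kinases that differed between the populations, are shown for their composition, with each CpG in capitals. The run of Jak2 is the 250 bases before the start, chr19:29251553-29251802 on the plus strand, and that of Jak3 is the first 150 of these 250 bases, chr8:71676133-71676282 on the plus strand.
Jak2: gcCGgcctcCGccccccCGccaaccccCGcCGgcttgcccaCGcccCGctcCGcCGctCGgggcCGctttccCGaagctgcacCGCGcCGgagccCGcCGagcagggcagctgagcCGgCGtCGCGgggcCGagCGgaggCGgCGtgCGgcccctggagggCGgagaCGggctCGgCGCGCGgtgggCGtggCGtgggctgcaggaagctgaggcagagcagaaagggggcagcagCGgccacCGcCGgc
Jak3: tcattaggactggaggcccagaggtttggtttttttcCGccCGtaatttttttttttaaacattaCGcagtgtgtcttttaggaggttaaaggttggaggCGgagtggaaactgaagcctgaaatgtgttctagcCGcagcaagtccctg
In the 250 bases before the start, Jak2 was 80.8% G and C with 37 CpG, more than 97.8% of all promoters, whereas Jak3 was 52.4% G and C with 8 CpG, against a median of 52.4% and 6 over all promoters. Among the other members, Stat5b had the most CpG, 40 at one of its 2 starts and 5 at the other, followed by Socs3 with 26 and Stat5a with 21 at one start and 5 at the other. Jak1 held 19, Stat3 and Socs1 13 each, and Cish 10.

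All 10 members were read in every library, but at levels that spanned a wide range. Divided by the length of their exons, the kinases and STATs stood far above the inhibitors, with Jak1 at the top of all 4 groups at 45.8 ± 5.74 CPM per kb in CLPs and 54.0 ± 5.50 in MPPs (SD, n = 6 each). Stat5b followed in CLPs at 42.6 ± 8.93 CPM per kb with Jak3 behind it at 29.5 ± 3.76, whereas Jak3 followed in MPPs at 47.7 ± 5.73 with Stat5b behind it at 38.6 ± 4.67. The middle of the order was held by Jak2, Stat3 and Stat5a at 12.7 to 24.5 CPM per kb in the means of both populations. The 4 inhibitors lay between 1.07 CPM per kb, for Socs2 in MPPs, and 5.30, for Cish in CLPs. In CLPs every neighbouring pair in this order overlapped over its 6 libraries. In MPPs the libraries separated 3 neighbouring pairs: Stat5b lay above Jak2, Stat3 above Stat5a, and Stat5a above Socs3. The length used matters for this scale: with the longest transcript in place of all exons, Stat5a rose from 13.9 to 25.01 CPM per kb over all libraries and Socs2 from 1.89 to 4.26, which put Socs2 above Socs3 in CLPs and above Socs1 in MPPs. Stat5a then stood above Jak2, at 22.9 against 17.7 in CLPs and 27.1 against 24.5 in MPPs, and Stat3 above both in MPPs at 37.1. With that length the MPP libraries of Stat3 and Stat5a overlapped.

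**Figure D1:**
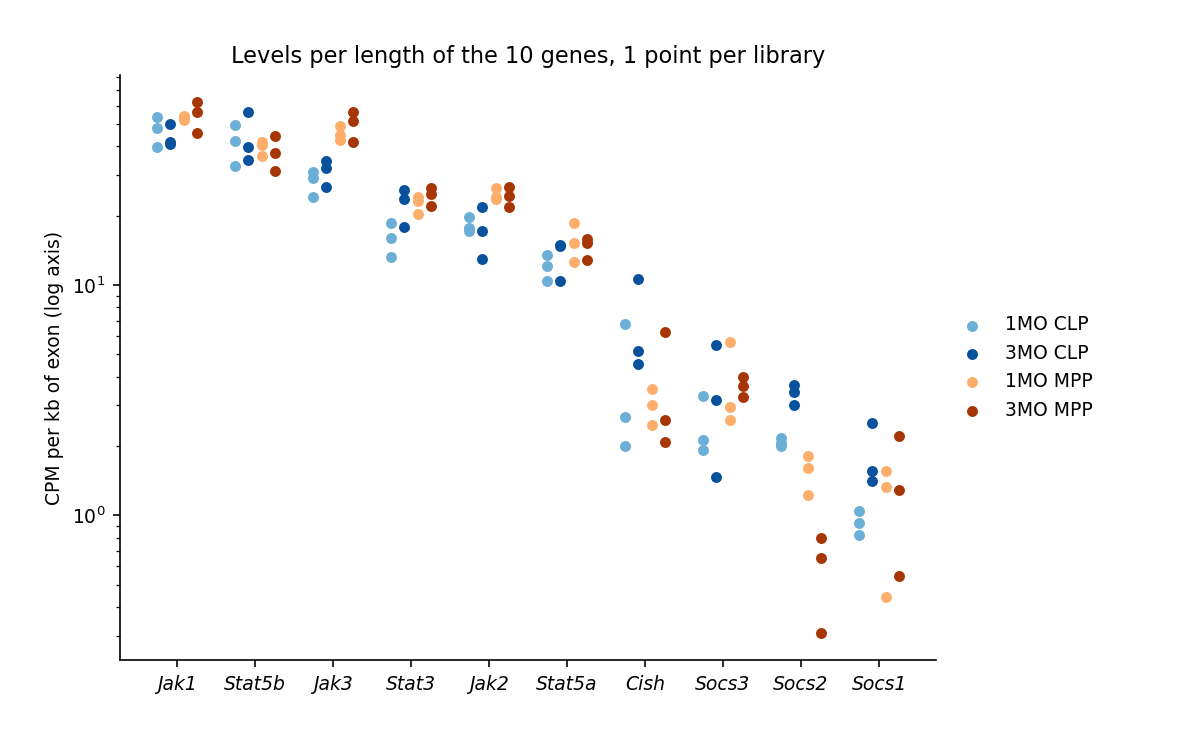
Level per length of each of the 10 genes on a log axis, in CPM per kb of exon, with 1 point for each of the 12 libraries coloured by group. The kinases and STATs lie at 10 CPM per kb and above, and Cish, Socs3, Socs2 and Socs1 lie below them except for a single 3MO CLP library of Cish at 10.6.

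The members also differed in how far replicates of a group spread. The within-group SD of log2 CPM was 0.18 for Jak1 and Jak3, which placed Jak1 at the 9.1 percentile and Jak3 at the 9.6 percentile of all tested genes. Stat3 lay at the 14.05 percentile, Jak2 at 15.1, Stat5a at 20.9, Stat5b at 27.3 and Socs2 at 48.4. Socs3, Cish and Socs1 were the most variable members, at percentiles of 68.7, 74.6 and 74.5, with Socs1 resting on only 16 to 74 estimated counts per library.

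CLPs and MPPs were first compared over both ages, with 6 libraries in each. Jak3 and Jak2 were lower in CLPs, by 1.62-fold and 1.38-fold, and Socs2 was higher by 2.78-fold, while the other 7 members did not pass an adjusted p of 0.05 in edgeR's quasi-likelihood test without a replicate block. These 3 of 10 stand beside 13.3% of all tested genes past the same threshold, 5.95% of them higher and 7.3% lower in CLPs. The same 3 members were those whose 6 CLP libraries did not overlap the 6 MPP libraries, which held for 8.77% of all tested genes. Over the 10 members the median log2 difference was -0.24, against -0.03 over all tested genes, with 4 positive and 6 negative values.

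Jak3, the kinase that sits on the common gamma chain, showed the clearest separation among the kinases. Its level was 165.1, 155.6 and 129.3 CPM in the 3 1MO CLP libraries and 184.5, 171.8 and 142.1 in 3MO CLPs. It was 239.4, 261.4 and 228.9 CPM in 1MO MPPs and 276.4, 303.1 and 223.8 in 3MO MPPs. The lowest MPP library thus lay above the highest CLP library, and the CLP and MPP libraries separated at each age. The log2 difference of CLPs from MPPs was -0.69 (SE 0.12, adjusted p = 0.00077, edgeR) over both ages, -0.70 (SE 0.17, adjusted p = 0.020) at 1MO and -0.69 (SE 0.17, adjusted p = 0.021) at 3MO. Over both ages it held without any 1 library, at an adjusted p of at most 0.0032. The comparisons within 1 age depended on single libraries: the adjusted p at 1MO was 0.065 without 1MO CLP #2, 0.11 without 1MO CLP #3, 0.063 without 1MO MPP #1 and 0.094 without 1MO MPP #2. At 3MO it was 0.055 without 3MO CLP #2, 0.10 without 3MO CLP #3 and 0.088 without 3MO MPP #2, and 0.078 in a fit of the 6 3MO libraries alone.

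Jak2, the kinase used by the erythropoietin and interleukin-3 receptor families, was also lower in CLPs. It stood at 99.3, 86.5 and 88.7 CPM in 1MO CLPs and at 65.4, 109.5 and 86.1 in 3MO CLPs, against 132.8, 118.7 and 121.3 in 1MO MPPs and 134.2, 110.2 and 122.1 in 3MO MPPs. All MPP libraries were above all CLP libraries, although the 3MO CLP #2 library at 109.5 and the 3MO MPP #2 library at 110.2 nearly met. The log2 difference over both ages was -0.47 (SE 0.13, adjusted p = 0.027, edgeR), and it was -0.44 (adjusted p = 0.23) at 1MO and -0.49 (adjusted p = 0.15) at 3MO. The call over both ages was lost without 1MO CLP #2 (adjusted p = 0.070), 1MO CLP #3 (0.060), 1MO MPP #1 (0.069), 3MO CLP #1 (0.070) or 3MO CLP #3 (0.055), with the difference between -0.57 and -0.37 over the libraries left out.

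Jak1, the kinase of the IL-7R chain and of the gp130 receptors, showed no separation. It was 287.0, 348.9 and 388.4 CPM in 1MO CLPs, 295.3, 363.2 and 303.5 in 3MO CLPs, 380.7, 391.2 and 378.3 in 1MO MPPs and 331.0, 452.6 and 406.3 in 3MO MPPs. The CLP and MPP ranges overlapped at both ages, and the log2 difference was -0.24 (SE 0.11, adjusted p = 0.22, edgeR) over both ages. As a share of the 3 kinases per length, Jak3 made up 31.8% ± 4.53 in CLPs and 37.7% ± 2.83 in MPPs, Jak1 49.1% ± 4.24 and 42.7% ± 3.11, and Jak2 19.0% ± 2.53 and 19.5% ± 2.21 (SD, n = 6 each). Jak1 was thus the largest share in both populations and Jak2 the smallest, and the shares of Jak3 overlapped between populations because the 3MO CLP #1 library reached 39.0%.

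**Figure D2:**
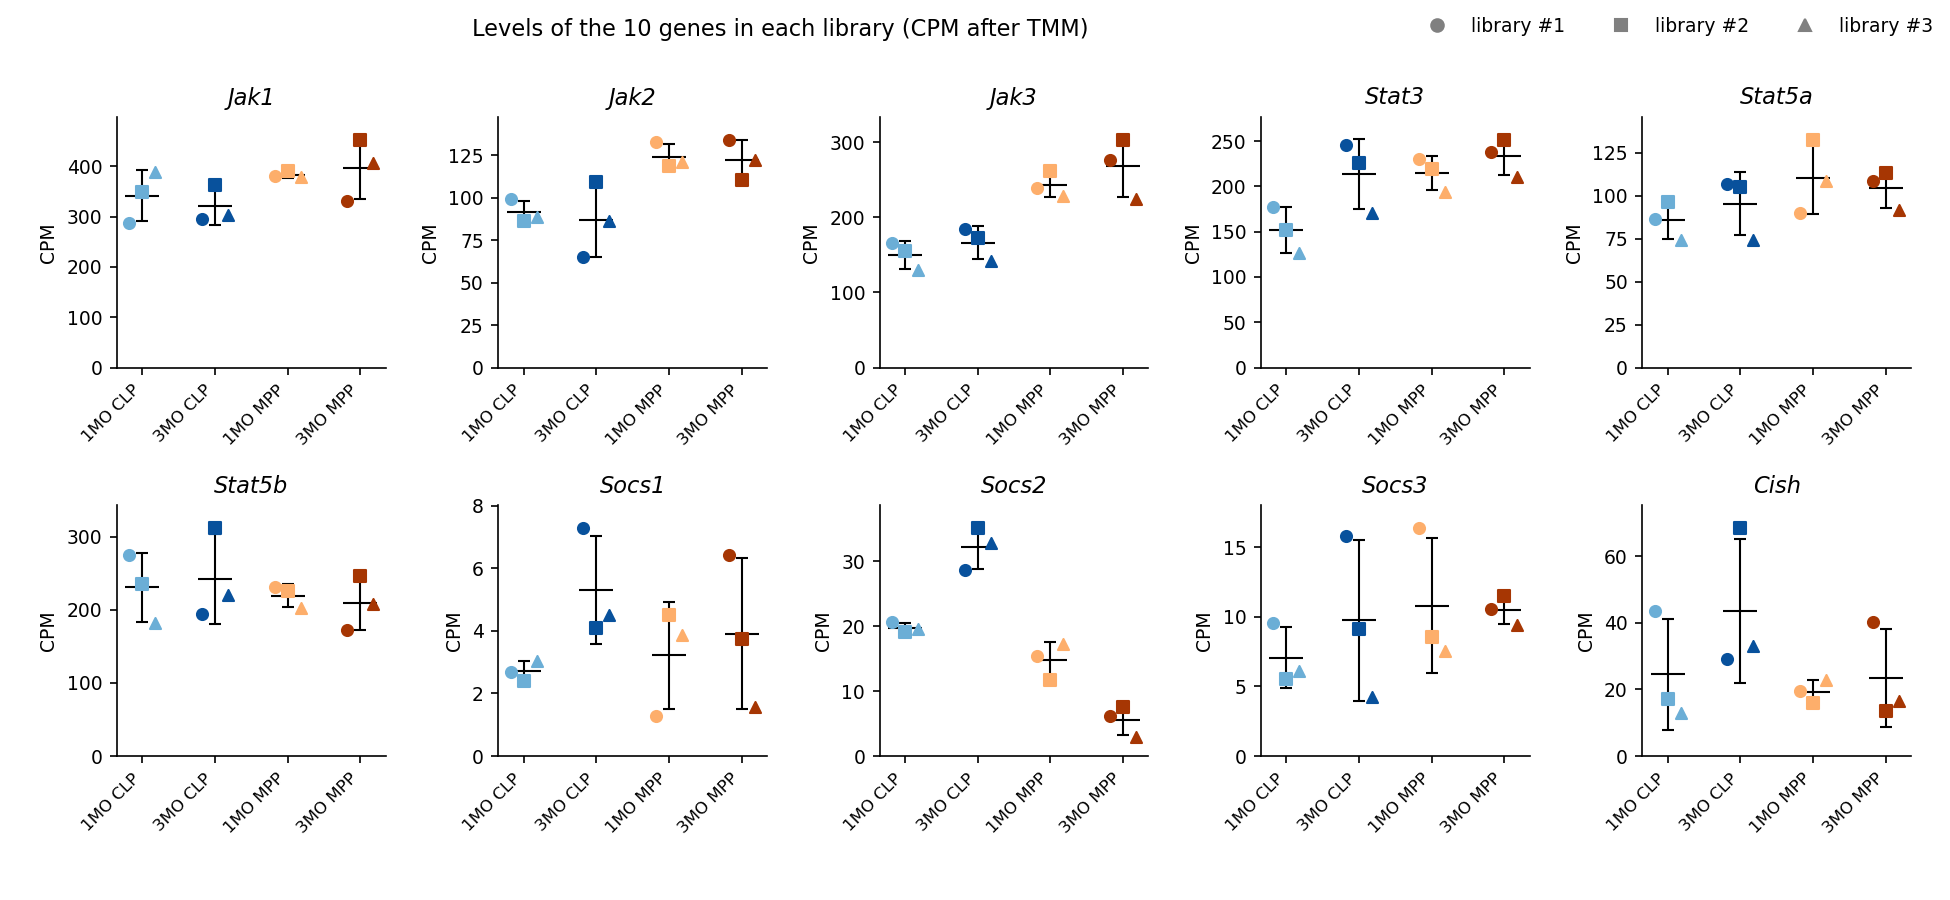
Level of each of the 10 genes in every library, in CPM after TMM scaling, by group, with the marker shape giving the library number and the black bar and whiskers the mean ± SD of 3 libraries. Jak3 and Jak2 lie lower in all CLP than in all MPP libraries, and Socs2 lies between 28.6 and 35.1 CPM in 3MO CLPs and between 2.93 and 7.56 in 3MO MPPs.

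Of the STATs, none passed the threshold between the populations in the fit without a replicate block, and the call of Stat3 changed with one. Stat3, which acts downstream of gp130 receptors and the G-CSF receptor, was 177.6, 151.9 and 126.5 CPM in 1MO CLPs and 230.4, 219.7 and 193.4 in 1MO MPPs, and at that age the libraries of the populations did not overlap. At 3MO it was 245.3, 225.5 and 170.5 CPM in CLPs and 237.5, 251.4 and 210.8 in MPPs, and the ranges overlapped. The log2 difference of CLPs from MPPs was -0.50 (SE 0.18, adjusted p = 0.13, edgeR) at 1MO, -0.13 (SE 0.17, adjusted p = 0.79) at 3MO and -0.31 (SE 0.12, adjusted p = 0.12) over both ages. With the replicate number as a block, Stat3 was called lower in CLPs over both ages (-0.32, adjusted p = 0.028, edgeR) and at 1MO (-0.51, adjusted p = 0.029), and with a block of age and number the adjusted p was 0.049 over both ages and 0.053 at 1MO (edgeR). Whether equal numbers mark a shared experiment is not given in the labels, although the running library numbers in the column names come in blocks of equal replicate number.

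Stat5a and Stat5b encode closely related STATs of IL-7 and many other cytokines. Stat5b was 275.3, 234.7 and 181.5 CPM in 1MO CLPs, 194.1, 311.5 and 219.9 in 3MO CLPs, 231.0, 225.3 and 201.7 in 1MO MPPs and 172.4, 245.7 and 207.7 in 3MO MPPs. Stat5a was 86.6, 96.0 and 74.4 CPM in 1MO CLPs, 106.8, 105.2 and 74.2 in 3MO CLPs, 90.1, 132.4 and 108.7 in 1MO MPPs and 108.7, 113.2 and 91.5 in 3MO MPPs. The groups overlapped for both genes, with log2 differences of CLPs from MPPs over both ages of 0.14 (SE 0.14, adjusted p = 0.62, edgeR) for Stat5b and -0.25 (SE 0.14, adjusted p = 0.30) for Stat5a. Per length, Stat5b exceeded Stat5a in all 12 libraries, by a log2 ratio of Stat5a to Stat5b of -1.74 ± 0.30 in CLPs and -1.36 ± 0.27 in MPPs (SD, n = 6 each), and of -0.98 and -0.60 with the longest transcript as the length. The 2 genes are neighbours on chromosome 11 of GRCm38, 8626 bases apart, and Stat5a (100859351 to 100885169, plus strand) overlaps the end of Stat3 (100885098 to 100939540, minus strand) by 72 bases. The kit keeps strand, but the strand setting of the quantification is not given in the sources used here. How reads shared by the similar coding sequences of Stat5a and Stat5b were divided was not measured, so the level of each gene and their ratio carry this uncertainty.

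At 1MO, 1 of 10 members, Jak3, passed the threshold between CLPs and MPPs, beside 5.38% of all tested genes. Jak2, Jak3 and Stat3 were lower and Socs2 was higher without overlap of the libraries, 4 of 10 members beside 24.9% of all tested genes. At 3MO, 2 of 10 members, Jak3 and Socs2, passed the threshold, beside 6.07% of all tested genes, and Jak2, Jak3 and Socs2 did not overlap, 3 of 10 beside 21.8%. At 1MO further marker lists also separated the populations. The 9 myeloid genes summed to 1156 to 1510 CPM in CLPs and 822.0 to 999.1 in MPPs, and 8 T and NK genes to 6.31 to 7.41 and 14.9 to 17.2. The 5 megakaryocyte and platelet genes summed to 9.02 to 21.8 and 25.4 to 29.0 CPM, and 8 interferon response genes to 223.5 to 287.8 and 302.0 to 400.7. At 3MO the T and NK genes alone of these 4 lists did not overlap, at 2.97 to 6.44 CPM in CLPs and 7.002 to 22.3 in MPPs. The part of these lists in the differences of the members was not tested.

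Socs2, the inhibitor best known from growth hormone receptor signaling, had the largest log2 difference of the 10 members over both ages and at 3MO. Its level was 20.6, 19.1 and 19.6 CPM in 1MO CLPs and 28.6, 35.1 and 32.8 in 3MO CLPs, against 15.4, 11.7 and 17.2 in 1MO MPPs and 6.20, 7.56 and 2.93 in 3MO MPPs. The 4 groups thus lay in 4 separate ranges, highest in 3MO CLPs, then 1MO CLPs, 1MO MPPs and 3MO MPPs. CLPs exceeded MPPs over both ages by 1.47 on the log2 scale (SE 0.23, adjusted p = 0.00044, edgeR) and at 3MO by 2.53 (SE 0.34, adjusted p = 0.00030), which is 5.78-fold. At 1MO the difference was 0.42 (SE 0.32, adjusted p = 0.66). The calls over both ages and at 3MO held without any 1 library, with the difference at 3MO between 2.22 and 2.83. The counts behind these levels were 229 to 634 in CLP and 41 to 286 in MPP libraries.

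**Figure D3:**
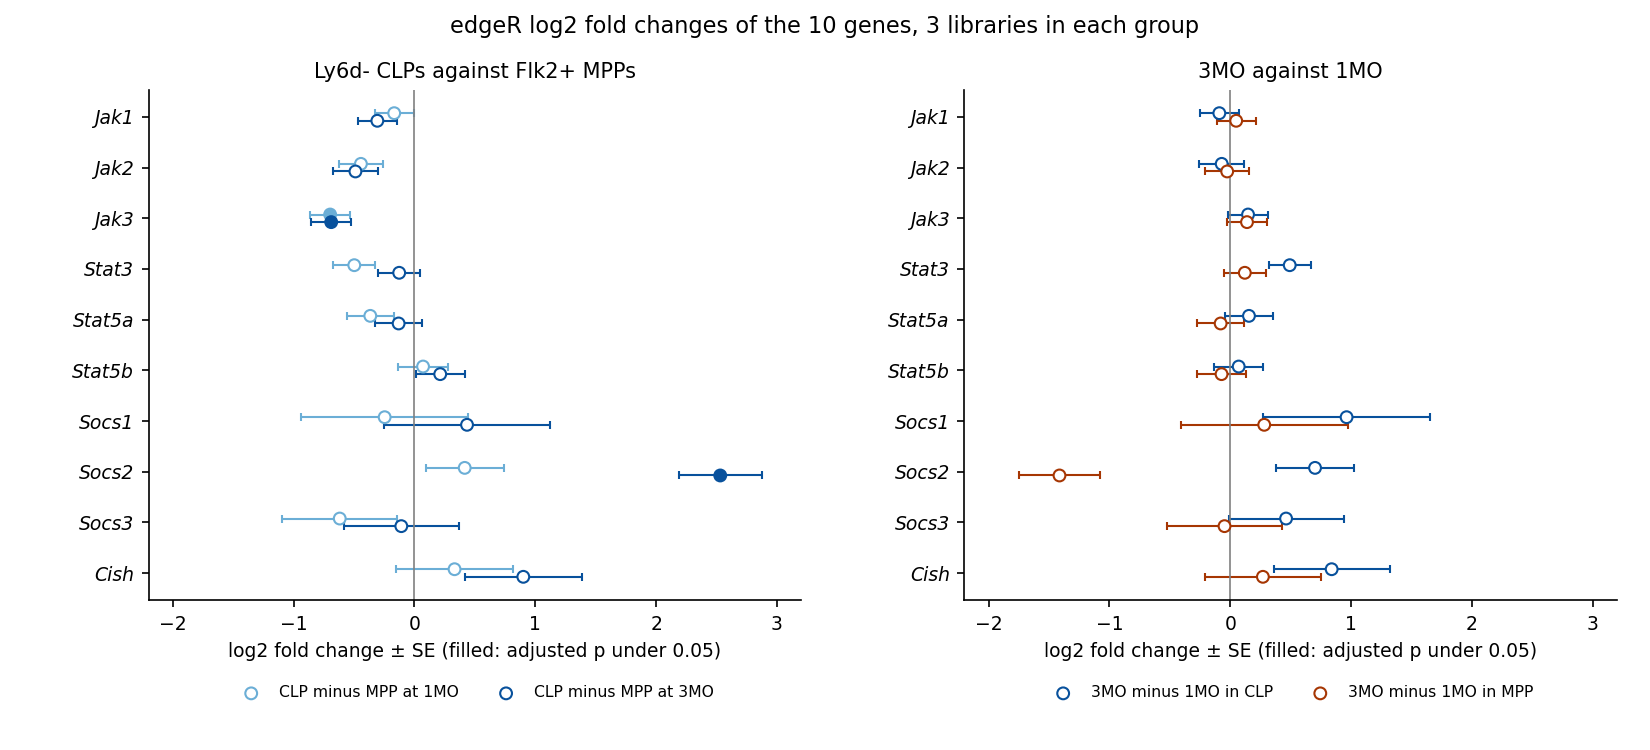
edgeR log2 fold changes ± SE of the 10 genes between CLPs and MPPs at each age (left) and between 3MO and 1MO in each population (right), from 3 libraries in each group, with filled points for an adjusted p under 0.05. Jak3 is filled at both ages and Socs2 at 3MO only, no point is filled on the right, and the age differences of Socs2 point in opposite directions in CLPs and MPPs.

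The remaining inhibitors did not separate the populations. Cish, which encodes CIS, was 43.5, 17.2 and 12.8 CPM in 1MO CLPs, 29.2, 68.3 and 33.1 in 3MO CLPs, 19.4, 15.8 and 22.7 in 1MO MPPs and 40.2, 13.4 and 16.6 in 3MO MPPs. A single library stood high in 3 of these groups, 1MO CLP #1, 3MO CLP #2 and 3MO MPP #1. The log2 difference of CLPs from MPPs was 0.62 (SE 0.34, adjusted p = 0.30, edgeR) over both ages and 0.90 (SE 0.48, adjusted p = 0.34) at 3MO. These values rested on single libraries: over both ages the difference was 0.27 without 1MO CLP #1, 0.37 without 3MO CLP #2 and 0.93 without 3MO MPP #1, and at 3MO it was 0.41 without 3MO CLP #2, 0.62 without 3MO MPP #2 and 1.54 without 3MO MPP #1, short of the threshold each time. Without the 4 libraries numbered 1, an alternative chosen after the values were seen, the difference at 3MO was 1.76 (adjusted p = 0.018) and that at 1MO was -0.36 (adjusted p = 0.71).

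Socs3, the inhibitor of gp130 and G-CSF receptor signaling, was 9.55, 5.53 and 6.13 CPM in 1MO CLPs, 15.8, 9.12 and 4.25 in 3MO CLPs, 16.4, 8.54 and 7.52 in 1MO MPPs and 10.6, 11.5 and 9.42 in 3MO MPPs, with a log2 difference of -0.36 (SE 0.34, adjusted p = 0.58, edgeR) over both ages. This difference was -0.61 without 3MO CLP #1, -0.18 without 3MO CLP #3 and -0.15 without 1MO MPP #1, short of the threshold each time. The library numbered 1 was the highest in 3 of the 4 groups. The summed level of 10 immediate early genes, all 10 in the table with 1 at 0 in all 3MO CLP libraries, was highest in the library numbered 1 of every group. It was 670.9, 434.8 and 238.0 CPM in 1MO CLPs, 1085, 281.3 and 294.2 in 3MO CLPs, 674.4, 637.3 and 304.9 in 1MO MPPs and 1239, 482.2 and 433.1 in 3MO MPPs, in library order. The members did not follow it throughout: 3MO CLP #2, with the highest Cish level, had the lowest sum of its group, and in 3MO MPPs Socs3 was highest in #2. The part of this sum in the levels of Socs3 and Cish was not tested. Socs1, an inhibitor of JAK1 and JAK2 that interferons induce, was the least abundant by read count, at 2.698, 2.39 and 3.05 CPM in 1MO CLPs, 7.29, 4.11 and 4.52 in 3MO CLPs, 1.29, 4.51 and 3.87 in 1MO MPPs and 6.42, 3.75 and 1.58 in 3MO MPPs. Its log2 difference between populations was 0.09 (SE 0.49, adjusted p = 0.94, edgeR).

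The change from 1 to 3 months, the age span the study examines in thymus-seeding progenitors, was then compared within each population. In CLPs, 0 of 10 members passed an adjusted p of 0.05 in edgeR, beside 0.0748% of all tested genes, and 2 had an unadjusted p under 0.05, beside 5.9%. DESeq2's Wald test also called 0 of the 10. Stat3 had the smallest p, with a log2 difference of 3MO from 1MO of 0.49 (SE 0.18, adjusted p = 0.72), and its groups overlapped, the lowest 3MO library at 170.5 CPM lying below the highest 1MO library at 177.6. Socs2 was next at 0.70 (SE 0.32, adjusted p = 0.84), which is 1.63-fold, with no overlap between 19.1 to 20.6 CPM at 1MO and 28.6 to 35.1 at 3MO. Socs1 did not overlap either, with 0.96 (SE 0.69, adjusted p = 0.91). These 2 of 10 members without overlap stand beside 10.6% of all tested genes. The log2 differences of the others were 0.84 for Cish, 0.46 for Socs3, 0.15 for Stat5a and Jak3, 0.07 for Stat5b, -0.07 for Jak2 and -0.09 for Jak1. That of Cish was 1.54 without 1MO CLP #1, 0.53 without 1MO CLP #3 and 0.35 without 3MO CLP #2. The median over the members was 0.31, against -0.01 over all tested genes, with 8 positive and 2 negative values. The 8 stroma marker genes, all of them above 0 in both groups, summed to 483.7 to 905.4 CPM in 1MO CLPs and 275.9 to 304.4 in 3MO CLPs. The dendritic genes summed to 953.4 to 1063 CPM at 1MO and 817.9 to 936.6 at 3MO, and the B-lineage genes to 182.3 to 221.9 and 136.4 to 167.0. These 3 lists did not overlap between the ages, and their part in the differences was not tested.

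In MPPs, 0 of 10 members passed the threshold between 3MO and 1MO in edgeR, beside 0.0224% of all tested genes, and 1 had an unadjusted p under 0.05, beside 3.48%. That member was Socs2, which fell outside the 1MO range in all 3 3MO libraries, from 11.7 to 17.2 CPM at 1MO to 2.93 to 7.56 at 3MO. Its log2 difference was -1.41 (SE 0.33, unadjusted p = 0.00068, adjusted p = 0.44, edgeR), and its p ranked 21 among the 13367 tested genes. DESeq2's Wald test gave -1.40 (adjusted p = 0.031), the only call among the members with that tool in this comparison. Libraries without overlap, here 1 of 10 members, stand beside 8.61% of all tested genes. The log2 differences of the other members lay between -0.08, for Stat5a, and 0.28, for Socs1, and the median was 0.01, against -0.01 over all tested genes. The CLP-type and MPP-type lists, which share Flt3 and Cd27, were both higher at 3MO without overlap. The CLP-type genes stood at 2476 to 2777 CPM in 1MO MPPs and 2830 to 3281 in 3MO MPPs, and the MPP-type genes at 3678 to 3895 and 4022 to 4093. The part of these lists in the difference of Socs2 was not tested.

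Socs2 thus had a positive age difference in CLPs and a negative one in MPPs, and the difference between the age differences was tested as the interaction of age and cell type. In edgeR, 0 of 10 members and 0% of all tested genes passed the threshold for the interaction, with 1 member and 3.21% of all tested genes at an unadjusted p under 0.05, and DESeq2's Wald test called 6 of all genes, 1 of them a member. For Socs2 the interaction was 2.11 on the log2 scale (SE 0.46, unadjusted p = 0.00034, adjusted p = 0.92, edgeR), and its p ranked 5 among 13367 genes. With DESeq2 the interaction of Socs2 was 2.11 with an adjusted p of 0.032. Without any 1 library it lay between 1.80 and 2.41, at an edgeR adjusted p of at least 0.72. The interaction of the other members lay between -0.14, for Jak1, and 0.68, for Socs1. The interaction and the age differences are built from the same 12 libraries, and do not add to one another as evidence.

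The rest of the pathway was described from 5 lists. Of 9 other kinase, STAT and SOCS genes, all were tested, and 1 was lower and 0 were higher in CLPs than in MPPs over both ages, beside 7.3% lower and 5.95% higher among all tested genes. The lower gene was Socs5, at a mean of 39.0 CPM in CLPs and 79.2 in MPPs, with a log2 difference of -1.02 (SE 0.18, adjusted p = 0.0013, edgeR). The median of this list was -0.17. The other 8 genes of the list, Tyk2, Stat2, Stat4, Stat6, Socs4, Socs6 and Socs7 among them, did not pass the threshold. Socs5 therefore differed in the opposite direction from Socs2, its relative among the members.

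Of 20 cytokine ligands, 5 had enough counts to be tested and 1 was called over both ages, beside 13.3% of all tested genes in either direction. This was Il15, whose receptor uses JAK1 and JAK3. Its mean was 3.88 CPM in CLPs and 14.3 in MPPs, with a log2 difference of -1.89 (SE 0.49, adjusted p = 0.016, edgeR). Il7 itself averaged 0.32 CPM in CLPs and 2.88 in MPPs and did not pass the threshold.

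Of 31 receptors that bind JAKs, 28 were tested, and 8 were higher and 5 lower in CLPs over both ages, beside 5.95% higher and 7.3% lower among all tested genes. At 1MO 5 were higher and 3 lower, beside 5.38% of all tested genes in either direction, and at 3MO 4 were higher and 3 lower, beside 6.07%. Il7r, on which the cells were sorted, is among the higher genes in each of these counts. Il6st, which encodes the shared gp130 chain, averaged 630.6 CPM in CLPs and 159.9 in MPPs, a log2 difference of 1.98 (SE 0.20, adjusted p = 5.4e-06, edgeR). Lifr, its partner in the LIF receptor, averaged 57.0 and 19.0 CPM, a difference of 1.55 (SE 0.29, adjusted p = 0.0018). In the other direction, Csf3r, the G-CSF receptor, averaged 38.7 and 176.4 CPM, a difference of -2.18 (SE 0.19, adjusted p = 1.4e-06). Il2rg, the common gamma chain on which JAK3 sits, averaged 45.8 and 77.7 CPM, and was lower in CLPs by 1.70-fold (log2 difference -0.76, SE 0.14, adjusted p = 0.0015), beside 1.62-fold for Jak3. Il7r averaged 355.2 CPM in CLPs and 10.4 in MPPs, which the sort on IL-7R set. The median over the 28 receptors was 0.03.

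Of 17 phosphatases, adaptors and other inhibitors, all were tested, and 3 were higher and 0 lower in CLPs over both ages, beside 5.95% higher and 7.3% lower among all tested genes. The higher genes were the adaptor Sh2b2 (log2 difference 1.27, SE 0.24, adjusted p = 0.0019, edgeR) and the ubiquitin ligases Cbl (0.63, SE 0.13, adjusted p = 0.0043) and Cblb (0.59, SE 0.15, adjusted p = 0.013). The phosphatases Ptpn1, Ptpn2, Ptpn6, Ptpn11 and Ptprc and the 4 Pias genes did not pass the threshold.

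Of 18 genes reported as targets of STAT5 or STAT3, 16 were tested, and 2 were higher and 2 lower in CLPs over both ages, beside the same 5.95% and 7.3% of all tested genes. Bcl2, which protects cells from death, averaged 570.9 CPM in CLPs and 229.3 in MPPs, a log2 difference of 1.34 (SE 0.13, adjusted p = 4.6e-06, edgeR), and the cyclin gene Ccnd2 averaged 996.7 and 590.4 CPM, a difference of 0.77 (SE 0.10, adjusted p = 7.9e-05). The kinase gene Pim1 had a log2 difference of -0.56 (SE 0.12, adjusted p = 0.0055), at 216.3 and 318.0 CPM, and Gfi1, a transcriptional repressor of progenitors, one of -0.74 (SE 0.19, adjusted p = 0.016), at 27.1 and 45.7 CPM. The call of Gfi1 was lost without 1MO MPP #3 (adjusted p = 0.056). The list's median was -0.08. In none of the 5 lists, which together held 74 tested genes, was a gene called by edgeR between ages in CLPs or in MPPs, or for the interaction. An unadjusted p under 0.05 was found for 4 of the 74 between ages in CLPs and for 7 in MPPs, beside 5.9% and 3.48% of all tested genes.

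**Figure D4:**
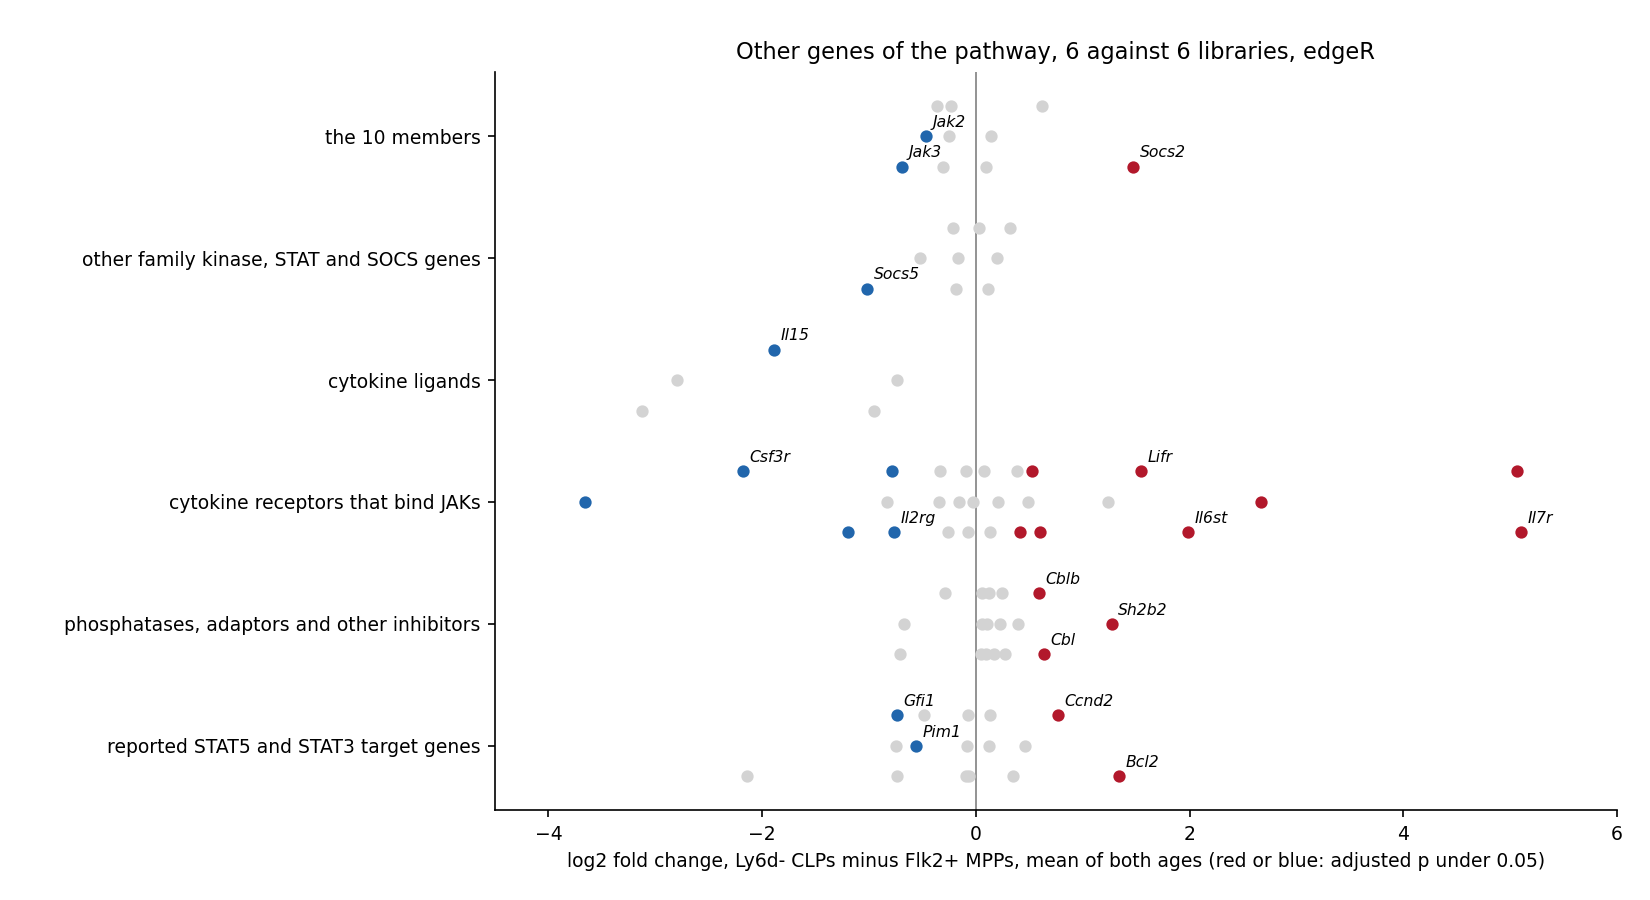
Log2 fold change of CLPs from MPPs over both ages (edgeR, 6 against 6 libraries) for the 10 members and for 5 lists of other pathway genes, with 1 point per tested gene, red for genes higher and blue for genes lower in CLPs at an adjusted p under 0.05, and grey for the rest. Among the labelled receptors the values run from Csf3r at -2.18 to Il7r at 5.11, and the members lie between -0.69 for Jak3 and 1.47 for Socs2.

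The genes whose level was most like that of each member across the 12 libraries are given with Pearson's r of log2 CPM, over 9313 genes of at least 10 CPM on average. These libraries share population and age, and r can follow these or the spread between libraries of a group, which were not separated. The 2 genes are the highest of all those compared, and no level of r for unrelated genes was computed. For Jak3 they were Gse1 (r = 0.98) and Slco3a1 (r = 0.97), for Jak2 Iffo2 (r = 0.93) and Cd1d1 (r = 0.92), and for Jak1 Vim (r = 0.93) and Psmg1 (r = 0.92). For Stat3 they were Uevld (r = 0.92) and Pkd2 (r = 0.91), for Stat5a Dus3l (r = 0.86) and Tmem135 (r = 0.84), and for Stat5b Arhgap26 (r = 0.88) and Fbxo46 (r = 0.87). For Socs2 they were Haao (r = 0.89) and Ccnd2 (r = 0.89), the latter also on the target list. For Socs3 they were Fosl2 (r = 0.88) and Ift172 (r = 0.85), for Cish Atf2 (r = 0.88) and Usp4 (r = 0.86), and for Socs1 Tmem214 and Phf8 (r = 0.84 each). By Spearman's rho, 5 of these 20 genes remained among the top 2 of their member: both for Jak3, and Psmg1 for Jak1, Haao for Socs2 and Usp4 for Cish.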

How the data were processed

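RNA was measured in 12 libraries, Ly6d- CLPs and Flk2+ MPPs at 1MO and 3MO in triplicate. Per the labels and the study's methods, the authors prepared libraries with a directional NEBNext Ultra II kit and used nf-core for trimming (Trim Galore), UMI handling (UMI-tools), quality control (FastQC), rRNA removal (SortMeRNA), alignment (STAR v2.7.10b) and quantification (Salmon); the submitters' processing notes name mm10. They deposited 1 table of expected counts (estimated by Salmon, scaled for transcript length, not for depth), with 8889083 to 20677785 counts per library. Its sums over genes depend on how Salmon divided reads between similar genes.

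From that table, counts were rounded to whole numbers and columns matched to samples by title. Genes were filtered with filterByExpr, scaled by TMM and fitted in 1 model of 4 groups with edgeR 4.0.16 (limma 3.58.1, R 4.3.3), quasi-likelihood test, Benjamini-Hochberg adjustment over 13367 genes, threshold 0.05. Comparisons were CLPs against MPPs over both ages and at each age, 3MO against 1MO in each population, and the interaction. Levels per length used exons of GENCODE M21 on GRCm38. Log2 CPM used a prior count of 2. Replicates of a group differed beyond sampling noise in every pair, and none was a duplicate. On simulated counts for CLPs against MPPs over both ages, edgeR recovered 60 of 100 genes changed 2-fold and 73 of 100 changed 4-fold, with 3 false calls among 13367 genes. Figures used matplotlib 3.10.9, and tables pandas 2.3.3 and numpy 2.4.6 in Python 3.11.15.

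The 10 members and the lists were chosen with earlier results of these data known. Named are the members, up to 3 called genes in each direction from each list over both ages, and the 2 genes most like each member. A called receptor that this rule would name is not reported here. Alternatives were DESeq2 1.42.0 (size factors, Wald test), other filters, a replicate block, thinned counts, fits of 6 libraries, each library left out, the longest transcript and Spearman's rho. Chosen after seeing the data were fits without the 4 libraries numbered 1 or the 4 numbered 3, the latter with the highest hemoglobin transcripts. Flow cytometry and other assays of the study were not used here.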

Additional observations from a re-analysis of the deposited data

Results flagged for a closer look

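Socs2 was singled out because its age differences in the 2 populations were opposite, with every 3MO CLP library above every 1MO CLP library and every 3MO MPP library below every 1MO MPP library. The difference between the age differences was 2.11 on the log2 scale, which did not pass the threshold in edgeR (adjusted p = 0.92) and passed it in DESeq2's Wald test (adjusted p = 0.032). With each library left out in turn the difference lay between 1.80 and 2.41. No other test of single outlying libraries was run.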

How the results depend on the processing

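With other size factors, filters, thinning or DESeq2's Wald test, 3 members stayed called between CLPs and MPPs over both ages. Socs1 rested on the fewest counts, and Socs1, Socs3 and Cish had the widest spread between replicates. Counts of all genes called depended on the tool: at 1MO DESeq2's Wald test called 1175 against 719, at 3MO 1371 against 812, between ages 57 against 10 in CLPs and 32 against 3 in MPPs, and for the interaction 6 against 0, and it called 1 member, Socs2, between ages in MPPs and 1 for the interaction against 0 each. With no filter 46, 26 and 6 genes were called between ages in CLPs, in MPPs and for the interaction, and with at least 10 counts in every library 4, 1 and 0. Fits of only 6 libraries gave 4 genes between ages in CLPs, and 435 genes and 1 member at 3MO between populations. The causes were not tested.

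Without the 4 libraries numbered 3, 865 genes were called over both ages, 258 at 1MO with 0 members, 290 at 3MO with 1 member, 2 and 1 between ages in CLPs and MPPs, and 1 for the interaction, with fewer libraries in each arm. Without the 4 numbered 1, 5 genes were called between ages in CLPs, and 658 were higher and 842 lower in CLPs than in MPPs over both ages. Either way 2 members, Jak3 and Socs2, stayed called over both ages and Jak2 did not (adjusted p = 0.13 and 0.22). At 3MO the call of Jak3 was lost either way (0.063 and 0.089). Without those numbered 1 the calls of Il15 and Gfi1 were lost (0.057 and 0.0503), and without those numbered 3 the calls of Il15, Il2rg, Cbl, Cblb and Gfi1 were lost too (adjusted p = 0.052, 0.061, 0.082, 0.081 and 0.34).

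With each library left out in turn, 460 to 887 genes were called at 1MO (463 without 1MO CLP #2, 473 without 1MO CLP #3, 460 without 1MO MPP #1, 477 without 1MO MPP #3), 6 to 10 between ages in CLPs (6 without 1MO CLP #1 or 3MO CLP #2), 3 to 5 in MPPs (5 without 3MO MPP #2) and 0 to 1 for the interaction (1 without 3MO CLP #3). Between 0 and 1 members were called at 1MO (0 without 1MO CLP #2, 1MO CLP #3, 1MO MPP #1 or 1MO MPP #2), 1 to 2 at 3MO (1 without 3MO CLP #2, 3MO CLP #3 or 3MO MPP #2), and 2 to 3 over both ages. Of all genes, 553 to 881 were called at 3MO and 1377 to 1782 over both ages.

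The labels do not say that equal numbers share an experiment, and not every same-numbered pair correlated over 0.1, so the libraries were not treated as paired. That cutoff is not a test of pairing. The running library numbers in the column names come in blocks of equal replicate number, which is a further hint of a shared source. The deviations of same-numbered libraries from their group means correlated by a median of 0.067 (-0.034 to 0.21), over 0.1 in 5 of 18 pairs, against a median of -0.030 and 1 of 36 for different numbers. As a hint from the data that numbers may mark a shared source, a library correlated best with its own number in 22 of 36 comparisons with another group. With a replicate block, 4 members were called over both ages and 2 at 1MO, the added one being Stat3 (adjusted p = 0.028 and 0.029, and 0.049 over both ages with a block of age and number), and the log2 age difference of Socs3 in MPPs was 0.069. Calls over all 13367 tested genes rose too, to 913 higher and 1066 lower in CLPs over both ages, from 796 and 976. At 1MO they rose to 434 and 481, from 344 and 375.

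Other differences short of the threshold moved by over 1.5 times without 1 library and kept their sign. Over both ages this held for Stat5b (0.030 to 0.23), and at 1MO for Jak1 (-0.27 to -0.057), Stat5a (-0.49 to -0.22), Socs2 (0.28 to 0.54) and Socs3 (-0.89 to -0.19). At 3MO it held for Jak1 (-0.42 to -0.20), Jak2 (-0.69 to -0.31) and Socs1 (0.054 to 0.99), and between ages in CLPs for Jak3 (0.050 to 0.25) and Stat5a (0.060 to 0.31). Between ages in MPPs it held for Jak3 (0.039 to 0.25) and Stat3 (0.051 to 0.19), and in the interaction for Jak1 (-0.25 to -0.035), Stat5a (0.084 to 0.39), Socs1 (0.30 to 1.24) and Cish (0.082 to 1.27).

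Differences of members that turned in sign were all short of the threshold, before and after. Between populations over both ages, Socs1 ranged from -0.10 to 0.37 over the libraries left out and was -0.011 without those numbered 3. At 1MO, Stat5b ranged from -0.076 to 0.22, Socs1 from -0.63 to 0.065 and Cish from -0.37 to 0.64, and without those numbered 1 Stat5b was -0.033 and Cish -0.36. At 3MO, Stat3 ranged from -0.22 to 0.013, Stat5a from -0.22 to 0.021, Stat5b from -0.011 to 0.36 and Socs3 from -0.63 to 0.25, with Socs3 at 0.0079 when thinned and 0.18 without those numbered 3. Between ages in CLPs, Jak1 ranged from -0.20 to 0.011, Jak2 from -0.27 to 0.092, Stat5b from -0.16 to 0.22 and Socs3 from -0.074 to 0.82, with Jak1 at 0.045 and Stat5b at -0.017 without those numbered 3 and Jak2 at 0.17 without those numbered 1. Between ages in MPPs, Jak1 ranged from -0.057 to 0.16, Jak2 from -0.098 to 0.043, Stat5a from -0.21 to 0.070, Stat5b from -0.21 to 0.047, Socs1 from -0.28 to 0.66, Socs3 from -0.25 to 0.38 and Cish from -0.37 to 0.55, and without those numbered 1 Stat5b was 0.092, Socs1 -0.65, Socs3 0.38 and Cish -0.36. For the interaction, Jak2 ranged from -0.25 to 0.11, Jak3 from -0.10 to 0.11, Stat5b from -0.083 to 0.29 and Socs3 from -0.031 to 0.87. Jak3 was -0.016 with no filter, -0.0010 with at least 10 counts and -0.061 without those numbered 3, where Jak1 was 0.026, and without those numbered 1 Jak2 was 0.21 and Socs3 -0.17.

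With the longest transcript, levels per kb over all libraries were 73.5 for Jak1 (49.9 with all exons), 51.1 for Jak3 (38.6), 33.7 for Stat3 (21.3), 25.01 for Stat5a (13.9) and 4.26 for Socs2 (1.89). The log2 ratio of Stat5a to Stat5b was -0.98 in CLPs and -0.60 in MPPs, and the shares of Jak1 were 54.2% and 47.6% and those of Jak2 14.3% and 14.8%. By Spearman's rho, 5 of the 20 most alike genes remained.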
